A study of Mus musculus with 12 samples.

Results

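The interferon-induced transmembrane (Ifitm) family was followed here in splenic regulatory T cells (Treg) of mice through 5 genes, Ifitm1, Ifitm2, Ifitm3, Ifitm6 and Ifitm10. Each was read by 1 probe set that the array annotation assigned to that symbol alone, which made 5 genes out of 22180 measured on 23521 such probe sets. The family was chosen by its annotation and with its level in iTreg, one of the 3 groups of the study, already known from these arrays. Differences of the 5 genes between iTreg and the other groups are therefore described with their errors and carry no test. The comparison of the other groups, e_iTreg and eTreg, is given with its adjusted p.

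The study profiled Treg from mice with allergic airway disease that had received intravenous immunoglobulin (IVIg), a pooled antibody preparation, or human serum albumin (HSA) as control protein. All mice were DEREG animals, in which the Foxp3 gene's control regions drive a green fluorescent protein joined to the diphtheria toxin receptor, and injected diphtheria toxin (DTx) therefore removes Foxp3-expressing cells. All were sensitised and challenged with ovalbumin, and all received 2 g/kg of protein. The eTreg group received HSA without DTx, the e_iTreg group IVIg without DTx, and the iTreg group IVIg after depletion with 40 ng/g DTx. Each group had 4 arrays that the series design calls biological replicates. Lymphocytes were prepared from spleen, Treg were isolated by flow sorting, and 2 ng of RNA per sample was amplified in a pair of cycles before labelling. The labels give neither age nor sex of the mice, nor the gate of the sort. The growth protocol is worded identically for every sample and mentions DTx in all of them, so the grouping here follows the series design. A group given DTx followed by HSA is not among the 12 arrays, and IVIg and DTx both differ between iTreg and eTreg, so that their parts cannot be told apart there. Between iTreg and e_iTreg the labels differ in DTx. In sorted bulk RNA, fewer cells of a type and less RNA per cell cannot be told apart.

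Ifitm proteins are small membrane proteins that carry a CD225 domain and hinder the fusion of enveloped viruses with cell membranes. IFITM3 acts mainly in endosomes and lysosomes, IFITM1 mainly at the cell surface, and IFITM2 resembles IFITM3. Their genes respond to type I and type II interferon through promoter motifs known as the interferon-stimulated response element and the gamma-activated site. In T cells the proteins are known from antiviral protection of memory cells and from associations with tetraspanins such as CD81. Ifitm10 is the member least tied to interferon.

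The promoters of the 4 clustered genes are shown so that each start region can be read beside its array values, and those of Ifitm10 are not printed. All 5 lie on chromosome 7 in RefSeq's GRCm38.p6 assembly, Ifitm1, Ifitm2, Ifitm3 and Ifitm6 side by side in 1 cluster and Ifitm10 apart from it. Promoter windows of 300 bases, from 250 before to 50 after each start, were searched on both strands for the core of the response element (GAAA, any 2 bases, GAAA) and for the gamma-activated site (TTCNNNGAA). The stretches below run from 150 bases before to 30 bases after the start, 5′ to 3′ on the gene's strand, with matches in capitals.
Ifitm2 (chr7:140955932-140956111, minus strand): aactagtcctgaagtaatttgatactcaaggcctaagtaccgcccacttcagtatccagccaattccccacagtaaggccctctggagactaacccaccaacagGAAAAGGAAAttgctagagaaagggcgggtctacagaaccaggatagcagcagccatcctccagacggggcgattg
Ifitm3 (chr7:141010715-141010894, minus strand): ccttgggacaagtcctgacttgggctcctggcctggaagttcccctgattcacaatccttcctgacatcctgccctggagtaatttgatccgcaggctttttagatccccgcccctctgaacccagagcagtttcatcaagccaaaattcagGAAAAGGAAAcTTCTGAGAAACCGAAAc
Ifitm1 (chr7:140967926-140968105, plus strand): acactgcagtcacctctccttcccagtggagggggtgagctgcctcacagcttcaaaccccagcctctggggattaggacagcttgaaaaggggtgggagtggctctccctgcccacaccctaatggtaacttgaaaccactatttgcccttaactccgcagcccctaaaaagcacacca
Ifitm6 (chr7:141016863-141017042, minus strand): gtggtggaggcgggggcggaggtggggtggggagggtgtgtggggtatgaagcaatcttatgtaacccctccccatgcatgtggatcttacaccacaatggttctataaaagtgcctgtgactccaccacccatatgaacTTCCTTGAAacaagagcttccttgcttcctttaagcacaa

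The response-element core occurred in the windows of Ifitm2, with 1 match before the start, and of Ifitm3, with 2 matches just after it. The windows of Ifitm1, Ifitm6 and Ifitm10 did not hold these letters. The RefSeq spans of Ifitm1 (chr7:140967429-140969827) and Ifitm2 (chr7:140954837-140959686) both extend upstream of their windows. Those outer ends were not searched, so the absence in Ifitm1 holds for its window alone. The core was thus found in 2 of 5 members, against 1079 of 27025 genes with a window in the table (3.99%). The gamma-activated site occurred in Ifitm3, where it overlaps the second core, and in Ifitm6, against 2582 of 27025 genes (9.55%). The core was also held by 21 of 44 type I interferon-induced genes with a window (47.7%), by 13 of 24 genes of the interferon-gamma list (54.2%) and by none of the 6 other CD225 domain genes with a window. These are matches of letters, not measured binding sites.

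Ifitm2 and Ifitm3, the endosomal restriction factors, stood far higher in iTreg than in both other groups. Ifitm2 read 7.93, 7.61, 7.53 and 7.12 on the log2 scale in eTreg replicates 1 to 4, 7.60, 8.14, 7.14 and 7.25 in e_iTreg, and 10.37, 10.25, 9.79 and 11.21 in iTreg. The lowest iTreg array lay 1.86 above the highest eTreg array and 1.65 above the highest e_iTreg array, so the iTreg arrays did not overlap with the others. The group means were 7.55 ± 0.33, 7.53 ± 0.45 and 10.40 ± 0.59 (SD, n = 4 each). The iTreg minus eTreg difference was 2.86 ± 0.27 (SE, 95% interval 2.28 to 3.43), a 7.24-fold higher level, and iTreg minus e_iTreg was 2.87 ± 0.27 (7.31-fold). By size, whichever the direction, Ifitm2 ranked 6 among the 23521 probe sets in each of these comparisons, which share the iTreg arrays.

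Ifitm3 read 7.12, 7.03, 7.02 and 6.68 in eTreg, 6.68, 7.11, 6.92 and 6.81 in e_iTreg, and 9.09, 9.33, 9.07 and 10.35 in iTreg. All iTreg arrays were again above all others, with a gap of 1.94 to the highest eTreg array and 1.96 to the highest e_iTreg array. The means were 6.96 ± 0.19, 6.88 ± 0.18 and 9.46 ± 0.61 (SD, n = 4 each). The difference of iTreg to eTreg was 2.49 ± 0.22 (SE, 95% interval 2.02 to 2.97, 5.63-fold, rank 19 by size), and to e_iTreg 2.58 ± 0.22 (5.97-fold, rank 10). Replicate 4 was the highest iTreg array for both genes. Without it the differences were 2.59 and 2.60 for Ifitm2 and 2.20 and 2.28 for Ifitm3, against eTreg and e_iTreg respectively.

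Ifitm1, which codes for the cell-surface member, was higher in iTreg by less. Its values were 5.99, 6.54, 5.92 and 5.86 in eTreg, 6.13, 6.05, 6.18 and 5.90 in e_iTreg, and 6.88, 6.73, 6.79 and 8.30 in iTreg. Replicates 1 to 3 of iTreg sat within a narrow band just above the highest eTreg array, at a gap of 0.19, and replicate 4 stood far above them. The means were 6.08 ± 0.31, 6.07 ± 0.12 and 7.18 ± 0.75 (SD, n = 4 each). The difference to eTreg was 1.10 ± 0.27 (SE, 95% interval 0.52 to 1.68, 2.14-fold) and to e_iTreg 1.11 ± 0.27 (2.16-fold). Leaving out iTreg replicate 4 lowered these to 0.73 and 0.74. The Ifitm1 means of eTreg and e_iTreg lay below 6.49, the median over the tested probe sets. Whether these levels were above background was not tested.

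Ifitm6, a member known from myeloid cells, differed little in size. It read 5.01, 4.64, 4.94 and 4.89 in eTreg, 4.82, 4.80, 4.76 and 4.78 in e_iTreg, and 5.24, 5.15, 5.03 and 5.59 in iTreg. The iTreg arrays did not overlap with the others, but the gap to the highest eTreg array was 0.02. The difference was 0.38 ± 0.12 (SE, 95% interval 0.13 to 0.63) to eTreg and 0.46 ± 0.12 (0.21 to 0.72) to e_iTreg, and 0.27 and 0.35 without iTreg replicate 4.

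Ifitm10 showed no separation. All its group means lay below the same median of 6.49, and whether they were above background was not tested. Its arrays covered 6.06 to 6.32 in eTreg, 6.13 to 6.50 in e_iTreg and 6.17 to 6.38 in iTreg, so all groups overlapped. The iTreg minus eTreg difference was 0.09 ± 0.11 (SE, 95% interval -0.14 to 0.31). That to e_iTreg was -0.05 ± 0.11 (-0.27 to 0.18), and its sign turned under quantile normalization, under centring of each array on its median and without e_iTreg replicate 3.

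**Figure D1:**
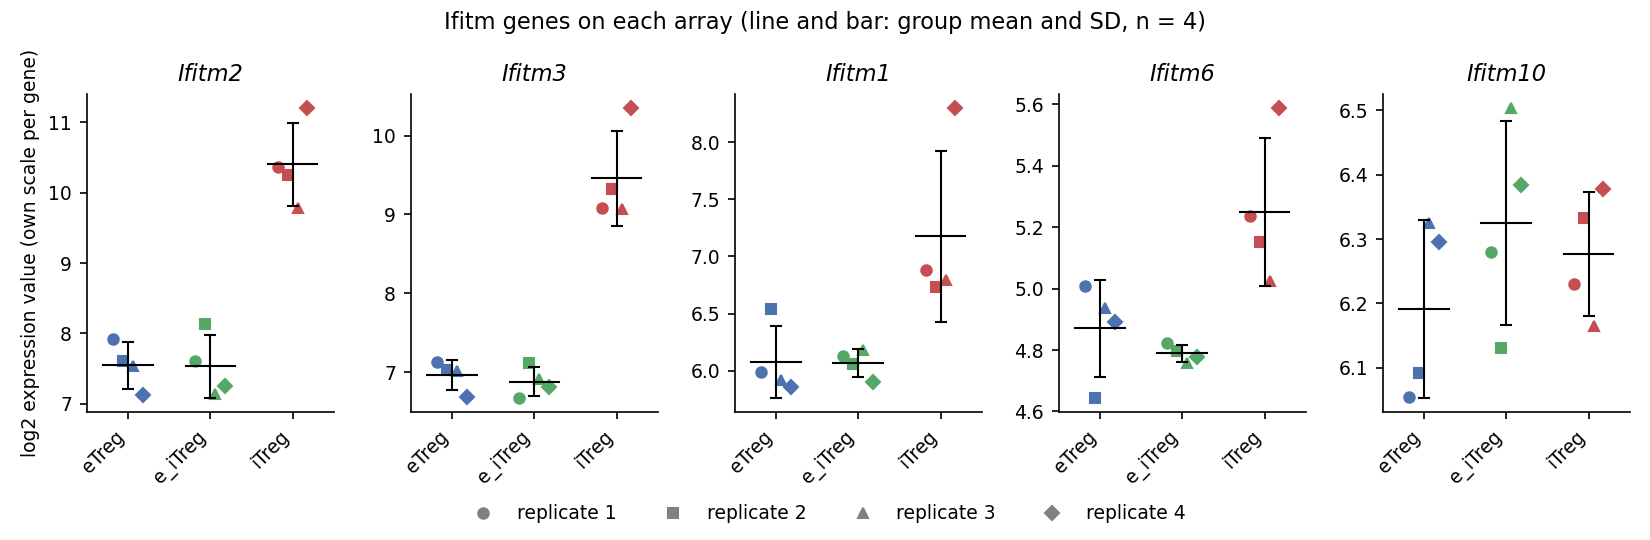
Log2 expression of the 5 Ifitm genes on each of the 12 arrays (points) with the group mean and SD (black bars, n = 4), for eTreg, e_iTreg and iTreg; the vertical axes differ between genes and do not start at 0. The iTreg arrays lie above all others for Ifitm1, Ifitm2, Ifitm3 and Ifitm6, and the groups overlap for Ifitm10.

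In iTreg minus eTreg, 3 of the 5 genes (Ifitm1, Ifitm2 and Ifitm3) were past the adjusted p of 0.05 as higher and none as lower, where 5.36% of all probe sets were higher and 4.63% lower (9.99% in either direction). In iTreg minus e_iTreg it was 4 of 5, with Ifitm6 added, against 6.49% higher and 4.75% lower (11.2% in either direction). Nothing is read from these counts, since the family was chosen with this rise known. The background of the second comparison moved with the scaling: 1526 probe sets were higher and 1117 lower on the deposited scale, and 2023 and 516 after median centring. In the same terms, 4 of 5 genes had all iTreg arrays above all eTreg arrays, as did 6.9% of all probe sets, and 4 of 5 were above all e_iTreg arrays, as were 7.57%.

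No difference between IVIg without depletion and HSA was detected in any of the 5 genes. The e_iTreg minus eTreg difference was -0.01 ± 0.27 (SE, limma, adjusted p = 0.994) for Ifitm1 and -0.01 ± 0.27 (adjusted p = 0.993) for Ifitm2. For Ifitm3 it was -0.09 ± 0.22 (adjusted p = 0.931), with a 95% interval of -0.56 to 0.39 that is well short of its difference in iTreg. Ifitm6 gave -0.08 ± 0.12 (adjusted p = 0.867) and Ifitm10 0.13 ± 0.11 (adjusted p = 0.753). The intervals of Ifitm1 and Ifitm2, -0.59 to 0.57 and -0.59 to 0.56, still allow a difference of about 1.5-fold either way, so equal levels are not shown. All 5 genes overlapped between e_iTreg and eTreg. Over all probe sets, limma called 0 (0%) in this comparison, and 1649 had an unadjusted p under 0.05.

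**Figure D2:**
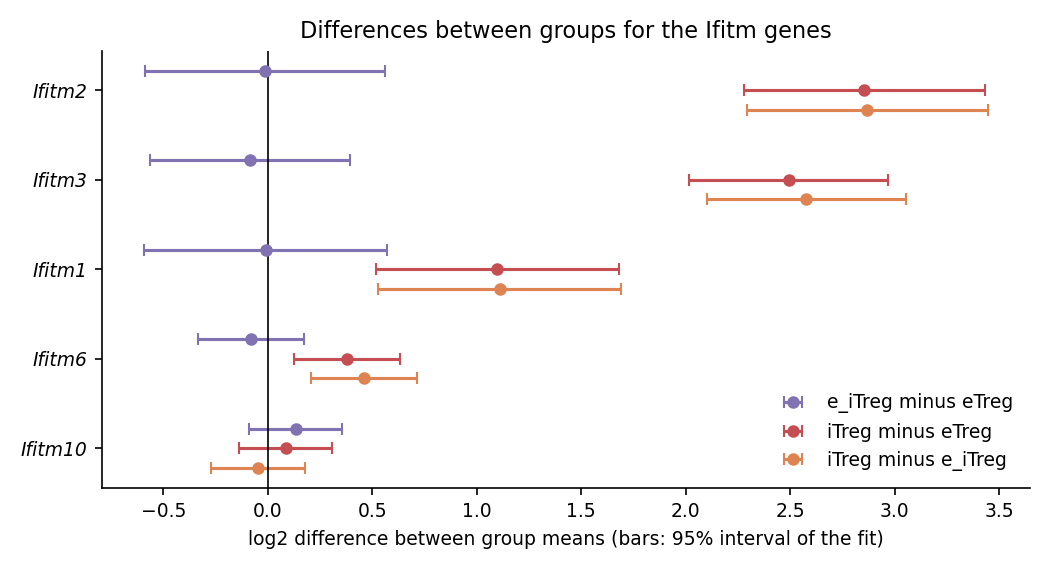
Log2 difference of each Ifitm gene in the 3 comparisons, with 95% intervals from the model over all 12 arrays (n = 4 per group). Ifitm2 and Ifitm3 lie between 2.49 and 2.87 in both comparisons with iTreg, and all 5 intervals of e_iTreg minus eTreg include 0.

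Ifitm1, Ifitm2 and Ifitm3 are close paralogs, and how far 1 probe set also reads a relative's RNA was not tested, since probe sequences were not used here. Ifitm5, the bone-specific gene of the same cluster and not among the 5, served as a neighbour of like structure: its iTreg minus eTreg difference was 0.04 ± 0.15 (SE, limma, adjusted p = 0.936). The genes that flank the cluster did not all stay level. Of 12 measured, 4 rose in iTreg over eTreg (5.36% of all probe sets did), namely B4galnt4, a glycosyltransferase gene, by 1.31 ± 0.22 (SE, adjusted p = 0.00247), Psmd13, a proteasome subunit, by 0.60 ± 0.13 (adjusted p = 0.00785), Rnh1, the ribonuclease inhibitor, by 0.43 ± 0.09 (adjusted p = 0.00557), and Pkp3, a desmosomal plakophilin, by 0.39 ± 0.11 (adjusted p = 0.036). The call for Pkp3 was lost when eTreg replicate 3 or 4 or iTreg replicate 1, 2 or 4 was left out. Around Ifitm10, 9 of 12 neighbours were measured and none passed against eTreg, while Krtap5-4 fell by 0.40 on the log2 scale against e_iTreg (adjusted p = 0.00984).

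Markers of other spleen cells moved with iTreg replicate 4. The mean log2 level over 8 plasma cell markers was 6.05 to 6.43 in eTreg, 6.18 to 6.54 in e_iTreg and 6.78, 6.48, 6.62 and 8.64 in iTreg replicates 1 to 4. The mean over 22 markers of monocytes, macrophages and dendritic cells was 6.48 to 6.83, 6.45 to 6.82 and 6.91, 6.76, 6.83 and 7.63, and over 11 neutrophil markers 5.89 to 6.74, 5.89 to 6.80 and 6.70, 6.64, 6.43 and 7.75. So replicate 4, where Ifitm1, Ifitm2, Ifitm3 and Ifitm6 were each highest, was also highest in plasma, monocytic and neutrophil markers, while the other iTreg arrays were within or just above the range of the eTreg and e_iTreg arrays in these means.

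Single markers add to this. Against eTreg, 1 of 8 plasma cell markers passed as higher (12.5%, beside 5.36% of all probe sets). It was Txndc5, at 0.69 ± 0.20 (adjusted p = 0.0456), and the antibody joining chain Jchain gave 2.62 ± 0.81 (adjusted p = 0.0551). Of the 22 monocytic markers, 2 passed as higher (9.09%). They were Itgam, the integrin CD11b, at 1.68 ± 0.29 (adjusted p = 0.00254), whose iTreg arrays (7.77 to 8.99) were all above the others, and Cst3 at 0.57 ± 0.13 (adjusted p = 0.0106). None of 11 neutrophil, 14 B cell, 9 CD8 T and NK cell or 5 erythroid and platelet markers passed against eTreg. Still, all 11 neutrophil and all 8 plasma cell markers were higher in iTreg than in eTreg without regard to the threshold. Their median differences were 0.46 and 0.65, beside -0.01 over all probe sets. Without iTreg replicate 4 these medians were 0.23 and 0.27, and no marker of the neutrophil or plasma cell lists passed against eTreg. Of the other lists, 18 of 22 monocytic, 11 of 14 B cell and 6 of 9 CD8 T and NK cell markers were higher. B cell markers varied within groups, with list means of 6.20 to 7.96 in eTreg, 6.14 to 7.91 in e_iTreg and 7.06 to 7.51 in iTreg. Foxp3 averaged 12.46, 12.30 and 12.17 in eTreg, e_iTreg and iTreg. Of 11 Treg and T cell identity genes only Ikzf4 passed as lower against eTreg, by 1.04 on the log2 scale (9.09%, beside 4.63% of all probe sets). Without regard to the threshold, 8 of the 11 were lower in iTreg than in eTreg, with a median difference of -0.10. The mean over these genes was 11.33 to 11.45 in eTreg, 11.29 to 11.43 in e_iTreg and 11.18 to 11.25 in iTreg. With the mean of B, plasma and monocytic cell markers as a covariate, the differences to eTreg and e_iTreg were 2.49 and 2.60 for Ifitm2, 2.23 and 2.39 for Ifitm3, and 0.74 and 0.85 for Ifitm1. This covariate left out the neutrophil markers, and the part of other cells in the level of the Ifitm genes was not tested.

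**Figure D3:**
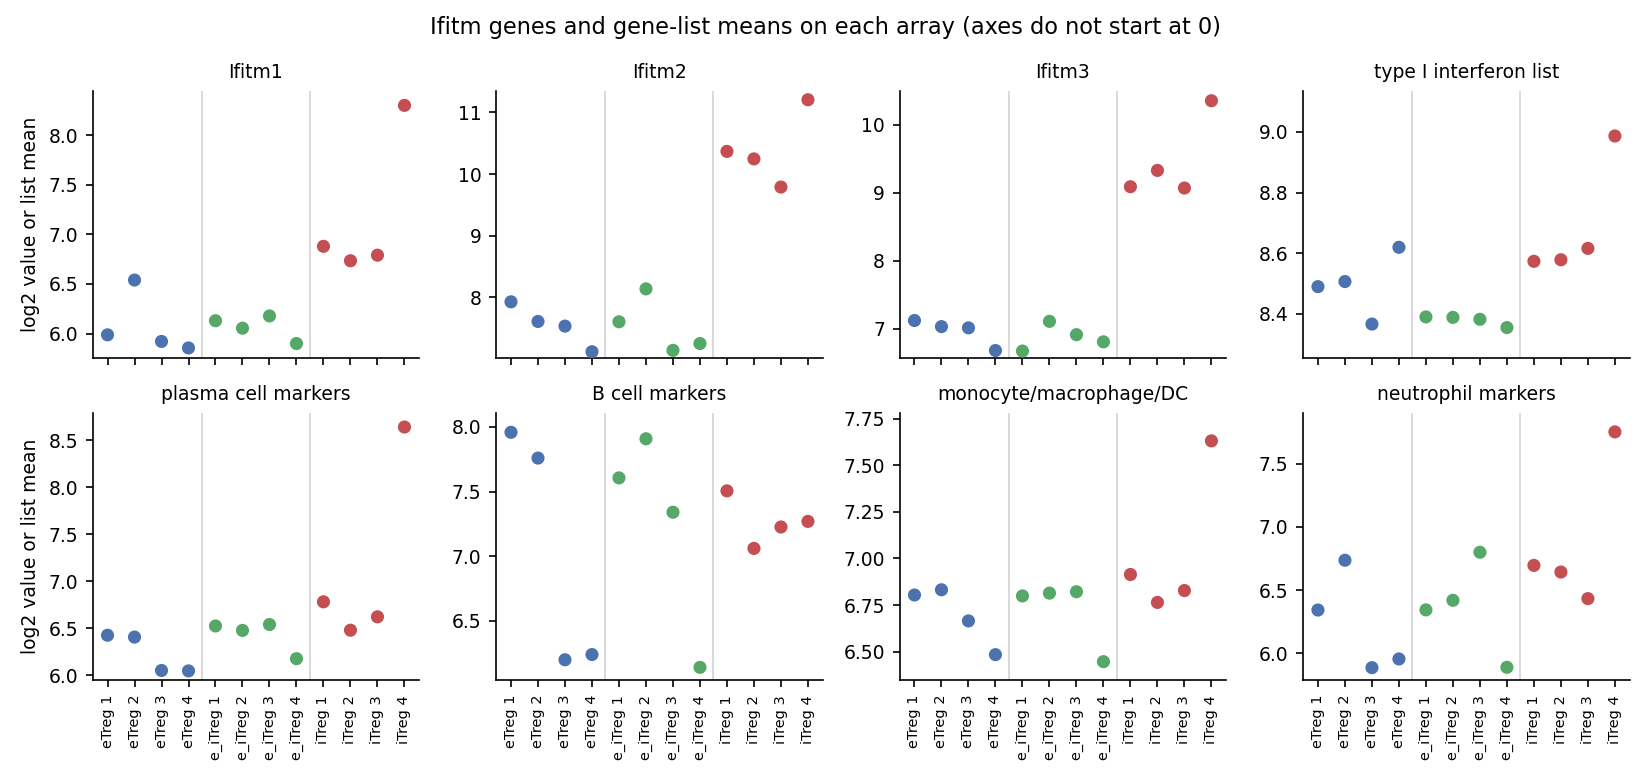
Ifitm1, Ifitm2 and Ifitm3 (log2 values) beside the mean log2 value of the type I interferon list and of 4 lists of other cells' markers on each of the 12 arrays; axes do not start at 0. Ifitm2 and Ifitm3 are high on all 4 iTreg arrays, while plasma cell, monocytic and neutrophil means stand out on iTreg replicate 4.

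Other genes that type I interferon induces rose in part. Of 61 listed, 54 were measured, and in iTreg 11 rose and 2 fell against eTreg (20.4% and 3.7%, beside 5.36% and 4.63% of all probe sets), with a median difference of 0.07 beside -0.01 over all probe sets. Against e_iTreg 15 rose and none fell (27.8%, beside 6.49% of all), with a median of 0.26 beside -0.07. With the other cells' marker mean as a covariate 6 genes in all passed against eTreg, and 3 without the 3 arrays that were lowest in B cell markers, where 13 had passed. Over all probe sets these fits called 1214 and 400, where 2349 had been called. Without iTreg replicate 4 the counts were 9 up and 2 down, and 12 up and none down. The lowest count against eTreg with 1 array left out was 7 up and none down, without eTreg replicate 3.

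Of the oligoadenylate synthetase genes, whose enzymes switch on RNase L, Oas3 and Oas1g rose, while Oas2, Oas1b, Oasl1 and Oasl2 gave 0.85, 0.13, -0.20 and 0.03 against eTreg and did not pass. Oas3 read 7.71, 7.64, 7.62 and 7.37 in eTreg, 7.61, 7.69, 7.43 and 7.49 in e_iTreg and 8.69, 8.47, 8.69 and 8.94 in iTreg. Its iTreg arrays were even and well apart from the rest, with a rise of 1.11 ± 0.11 over eTreg (SE, limma, adjusted p = 0.000225) and 1.14 ± 0.11 over e_iTreg (adjusted p = 0.00016). Oas1g rose over eTreg by 1.36 ± 0.25 (adjusted p = 0.00325). The antiviral nucleotide kinase Cmpk2 rose by 1.20 ± 0.17 (adjusted p = 0.00119), and Phf11b and Phf11a, of a PHD finger family, by 0.96 ± 0.14 (adjusted p = 0.0012) and 0.58 ± 0.11 (adjusted p = 0.00359). These 5 calls against eTreg held in each of the 12 fits that left out 1 array.

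Bst2, which codes for tetherin, another membrane protein that restrains enveloped viruses, rose by 0.87 ± 0.19 (adjusted p = 0.00891) over eTreg and by 0.71 ± 0.19 (adjusted p = 0.0255) over e_iTreg. The second call was lost without e_iTreg replicate 1 or 4 or iTreg replicate 3 or 4. Isg15, a ubiquitin-like modifier, read 8.23, 8.76, 8.45 and 9.44 in iTreg and rose by 0.82 ± 0.23 (adjusted p = 0.0328) over eTreg, a call lost without eTreg replicate 1, 3 or 4 or iTreg replicate 2 or 4. Ifi27 and Ddx60 fell by 0.39 and 0.44 on the log2 scale against eTreg (adjusted p = 0.0252 and 0.0387), calls kept in 7 and 5 of 12 such fits and lost, among others, without eTreg replicate 3. Chosen after their values were seen, Ifit1, Ifit3 and Usp18, among the most used readouts of type I interferon, gave 0.21 ± 0.20, -0.19 ± 0.17 and -0.19 ± 0.17 against eTreg (adjusted p = 0.633, 0.627 and 0.631). Of the 11 genes of this list that rose against eTreg, where 2 fell, Parp12 gave 0.58 (limma, adjusted p = 0.0114). Of the 15 that rose against e_iTreg, Rtp4 and Eif2ak2 gave 0.79 and 0.70 (adjusted p = 0.00464 and 0.00359). These calls held in each of the 12 fits that left out 1 array. Differences of the list to eTreg ran from -0.44 to 1.36. They did not reach the size of the rise of Ifitm2 and Ifitm3, which were chosen with that rise known.

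Of the genes induced mainly by interferon-gamma, a minority rose. Of 35 listed, 30 were measured. In iTreg 8 rose and none fell against eTreg (26.7%, beside 5.36% higher and 4.63% lower of all probe sets). The median was 0.26, beside -0.01 over all. Against e_iTreg 11 rose and none fell (36.7%, beside 6.49% higher and 4.75% lower of all), with a median of 0.36 beside -0.07. The count against eTreg was unsteady. It was 2 with the other cells' marker mean as a covariate, 1 without the 3 arrays that were lowest in B cell markers and 3 when all rows of the table were tested. It was 3 to 8 when 1 array was left out, with 3 without eTreg replicate 3 and 4 without eTreg replicate 2 or iTreg replicate 4. It was 5 without eTreg replicate 1 or iTreg replicate 1, 2 or 3. Calls over all probe sets against eTreg dropped as well, from 2349 to 1214 with the covariate and to 400 without those 3 arrays. Without eTreg replicate 3 they were 1487. Iigp1, an immunity-related GTPase that attacks vacuoles of pathogens, rose by 0.999 ± 0.201 (adjusted p = 0.00577) over eTreg and 1.52 ± 0.20 (adjusted p = 0.000859) over e_iTreg. Wars, the tryptophanyl-tRNA synthetase gene, rose by 0.70 ± 0.14 (adjusted p = 0.00555) and the immunoproteasome subunit Psmb9 by 0.46 ± 0.11 (adjusted p = 0.0125) over eTreg. Irgm1, Gbp7 and Gm12250, further GTPases, gave 0.44 ± 0.12, 0.68 ± 0.19 and 0.92 ± 0.26 (adjusted p = 0.0257, 0.0323 and 0.0361) over eTreg, each of which missed the threshold in 4 to 6 of the 12 fits that left out 1 array, eTreg replicate 3 among them for all of these genes. Over e_iTreg, Irgm1 and Gm12250 rose by 0.65 ± 0.12 (adjusted p = 0.00325) and 1.36 ± 0.26 (adjusted p = 0.0046).

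Of the Ifi200 family, interferon-induced DNA sensors and their relatives, 8 genes were measured. Ifi204 read at most 3.37 in eTreg, 3.21, 3.54, 2.74 and 3.02 in e_iTreg and 4.81, 4.81, 5.48 and 6.26 in iTreg. Its iTreg arrays did not overlap with the others, and it rose by 2.10 ± 0.26 (SE, adjusted p = 0.000605) and 2.21 ± 0.26 (adjusted p = 0.000711) over eTreg and e_iTreg. On all 12 arrays the values of Ifi204, like those of Ifitm6, lay below the median of 6.49 over the tested probe sets. The eTreg and e_iTreg values of Oas1g did so too. Whether these levels were above background was not tested. Ifi208 fell by 0.52 on the log2 scale against eTreg (adjusted p = 0.0466), a call kept in 3 of 12 fits without 1 array and lost, among others, without eTreg replicate 3, and Ifi213 was 0.78 ± 0.17 higher than in e_iTreg (adjusted p = 0.008) but differed from eTreg by 0.02 ± 0.17 (adjusted p = 0.964), with means of 7.69, 6.94 and 7.72 in eTreg, e_iTreg and iTreg.

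**Figure D4:**
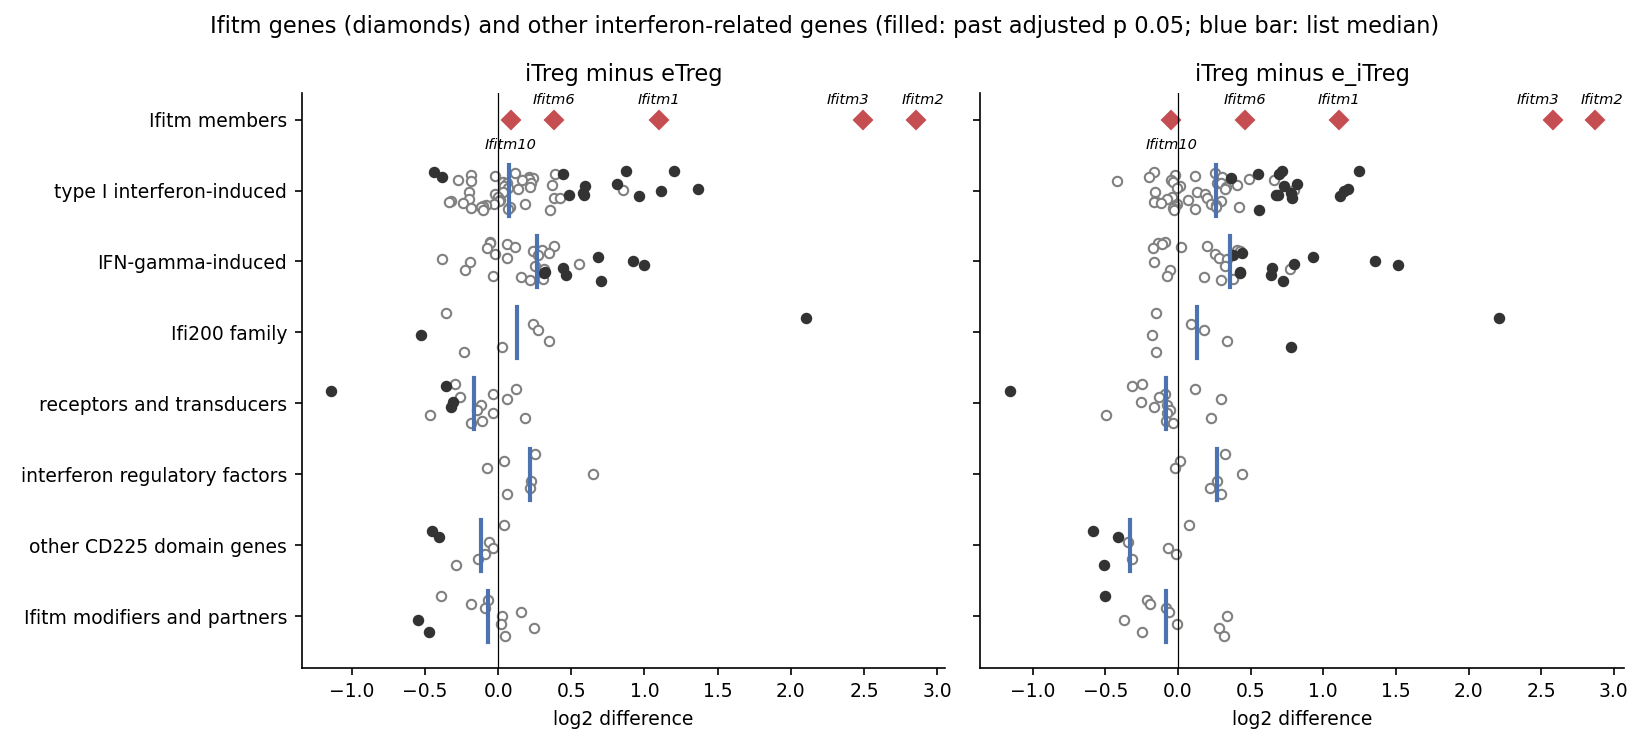
Log2 differences of iTreg to eTreg (left) and to e_iTreg (right) for the Ifitm genes (diamonds) and for other lists of interferon-related genes (circles, filled where adjusted p was under 0.05); bars mark list medians. Ifitm2 and Ifitm3 lie to the right of every circle, followed by Ifi204, and the comparisons share the iTreg arrays.

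On the side of the signal, the ligand gene Ifng was higher in iTreg. It read 7.54, 7.26, 7.45 and 6.97 in eTreg, 7.54, 7.52, 7.21 and 7.42 in e_iTreg and 9.16, 8.83, 8.18 and 8.01 in iTreg, where replicate 4, highest for the Ifitm genes, was lowest. All iTreg arrays were above the others, and the rise was 1.24 ± 0.21 (SE, adjusted p = 0.00233) over eTreg and 1.12 ± 0.21 (adjusted p = 0.00399) over e_iTreg. Of 17 measured ligand genes, 1 rose and 1 fell (5.88% each) in both comparisons. These shares are near those of all probe sets, 5.36% higher and 4.63% lower against eTreg and 6.49% and 4.75% against e_iTreg. The gene that rose was Ifng. Ifna12 fell by 0.46 on the log2 scale against eTreg (adjusted p = 0.0266) and by 0.49 against e_iTreg (adjusted p = 0.0193). The first of these falls was lost without eTreg replicate 1, 3 or 4 or iTreg replicate 2, and the second without e_iTreg replicate 3 or 4. Against e_iTreg 4 ligand genes fell without e_iTreg replicate 2 and 3 without iTreg replicate 2. The mean over the 17 ligand genes was 6.11, 6.19 and 6.08 in eTreg, e_iTreg and iTreg, below the median of 6.49 over the tested probe sets. Whether such levels were above background was not tested.

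The receptor and transducer genes leaned the other way against eTreg. Of 16 measured, none rose and 4 fell (25%, beside 4.63% of all probe sets). With 1 array left out, 1 or 2 fell there, or 4 without e_iTreg replicate 3. Against e_iTreg none rose and 1 fell (6.25%, near the 4.75% of all probe sets). That one was Ifngr2, the signalling chain of the interferon-gamma receptor, at 10.23, 10.07, 10.98 and 9.86 in eTreg, 10.49, 10.07, 10.02 and 10.62 in e_iTreg and 8.97, 9.21, 9.02 and 9.35 in iTreg. It fell by 1.14 on the log2 scale against eTreg (SE 0.20, adjusted p = 0.00301) and by 1.16 against e_iTreg (adjusted p = 0.00296), with no overlap between groups. Ifnar2, Pias1 and Jak1 fell by 0.36, 0.32 and 0.31 against eTreg (adjusted p = 0.0413, 0.0435 and 0.0479), but each call was kept in only 2 or 3 of 12 fits without 1 array, and that of Ifnar2 was also lost after median centring. Ifnar1 gave -0.30 ± 0.11 (adjusted p = 0.105) and Ifngr1 0.12 ± 0.19 (adjusted p = 0.811). Of 7 interferon regulatory factor genes none passed, with Irf7 at 0.22 ± 0.13 (adjusted p = 0.369) and Irf9 at 0.06 ± 0.10 (adjusted p = 0.828).

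In e_iTreg, the interferon-induced lists leaned slightly below eTreg without a call. Of the 54 type I genes, 9 were above and 45 below eTreg, with a median of -0.12 beside 0.03 over all probe sets, and of the 30 interferon-gamma genes 7 were above and 23 below, with a median of -0.11. Of the type I list, the genes with the smallest p were Trim30a at -0.38 ± 0.13, Slfn2 at -0.29 ± 0.11 and Eif2ak2 at -0.31 ± 0.13 (limma, adjusted p = 0.704 each). Of the interferon-gamma list, Gbp9 gave -0.72 ± 0.27 and Iigp1 -0.52 ± 0.20, and of the Ifi200 family Ifi213 gave -0.75 ± 0.17 (adjusted p = 0.704 each). None of these lists had a gene past the threshold, while the Ifitm genes stayed between -0.09 and 0.13.

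Sharing the CD225 domain did not go with a rise among the genes measured. Of 8 other CD225 domain genes measured, none rose and 2 fell against eTreg (25%, beside 4.63% of all probe sets). The median was -0.11, beside -0.01 over all probe sets. Against e_iTreg 3 fell (37.5%, beside 4.75%), with a median of -0.33 beside -0.07. The number of probe sets called lower in this second comparison moved with the scaling, as given above. With 1 array left out, 1 or 2 fell against eTreg and 2 to 5 against e_iTreg, 5 without e_iTreg replicate 2. Prrt1, a proline-rich transmembrane protein of synapses, fell by 0.45 (SE 0.09, adjusted p = 0.0055) and 0.58 (adjusted p = 0.00148) on the log2 scale. Prrt2, a relative linked to transmitter release, fell by 0.41 against both (adjusted p = 0.0443 and 0.0388), calls kept in 4 and 5 of 12 fits without 1 array. Trarg1, a trafficking regulator of the glucose transporter GLUT4, fell by 0.51 against e_iTreg (adjusted p = 0.00895). The means of Trarg1, Syndig1, Tmem91, Syndig1l and Ifitm5 lay below the median of 6.49 over the tested probe sets in every group. Whether these levels were above background was not tested.

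Among 11 genes whose products modify or bind Ifitm proteins, 2 fell against eTreg and 1 against e_iTreg (18.2% and 9.09%, beside 4.63% and 4.75% of all probe sets), and none rose. With 1 array left out, 0 to 2 fell against eTreg, and without iTreg replicate 2 there were 3 that rose and 1 that fell against e_iTreg. Zdhhc20, a palmitoyltransferase that lipidates IFITM3, fell by 0.47 (adjusted p = 0.0421), and Setd7, a methyltransferase that acts on IFITM3, by 0.55 (adjusted p = 0.0466) on the log2 scale. Those calls were kept in 4 and 3 of 12 fits without 1 array, and both were lost after median centring. The tetraspanin Cd81 gave -0.39 ± 0.13 (adjusted p = 0.064) against eTreg and fell by 0.50 against e_iTreg (adjusted p = 0.0184), a call lost after median centring. Of 9 other virus restriction factors, Shfl alone passed against eTreg (11.1%, beside 4.63% lower of all probe sets), and it fell by 0.44 (adjusted p = 0.00522). None passed against e_iTreg, where Shfl gave -0.27 ± 0.09 (adjusted p = 0.0575).

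The genes with the profiles most like the Ifitm genes were ranked by the root-mean-square difference of log2 values, each gene centred on its own mean, over the 12 arrays. For Ifitm3 the nearest was Ifitm2 at 0.287, then Ifi204 at 0.343, Il12rb2, a chain of the interleukin-12 receptor, at 0.399, Rom1 at 0.470, the long noncoding RNA Morrbid at 0.489 and the granule protein gene Nkg7 at 0.498. For Ifitm2 it was Ifitm3 at 0.287, then Anxa2, an annexin, at 0.461, Ifi204 at 0.500, Havcr2, which codes for the inhibitory receptor TIM-3, at 0.537, Il12rb2 at 0.537 and granzyme A (Gzma) at 0.550. Ifitm1 had other neighbours, Creld2 at 0.180, Isg15 at 0.253, Oas2 at 0.268, Sirpb1c at 0.290, F830016B08Rik at 0.303 and Fkbp11 at 0.306. Creld2 and Fkbp11 code for proteins of the endoplasmic reticulum, and Oas2, like Ifitm1, was highest on iTreg replicate 4, with 8.11, 8.55, 8.21 and 9.72 in iTreg. Ifitm6 and Ifitm10 were not ranked, since their SD over the 12 arrays was below 0.334, the lower bound set for this ranking.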

How the data were processed

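Values were the deposited log2 expression per probe set, made by the authors with oligo and RMA (background correction, normalization between arrays and summary of probes), per the submitters' processing notes; their versions are not given in the sources used here. Of 41345 rows, 23521 had 1 gene symbol, 1814 several and 16010 none, and 23328 of the 23521 were found in the RefSeq table. The 23521 rows entered 1 linear model over 3 groups and 12 arrays (limma 3.58.1, R 4.3.3), tested two-sided, with Benjamini-Hochberg adjustment over all rows and a threshold of 0.05. The number of arrays limits the precision, with a median SE of 0.121, and the fit was tested on simulated data. For lists, the brightest probe set of a gene was used. The members and lists were chosen with earlier results of these data known. Named were all members, of each list those with the smallest p (up to 6, 4 and 3 in iTreg minus eTreg, iTreg minus e_iTreg and e_iTreg minus eTreg), a few fixed interferon genes, flanking genes past the threshold and the 6 genes most like a member. Not every gene so chosen is printed. Promoter windows came from RefSeq (GRCm38.p6). Alternatives were other scalings, filters, error models, covariates, the replicate number as a block and leaving out arrays.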

Additional observations from a re-analysis of the deposited data

Results flagged for a closer look

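Of 63 sets of 4 arrays examined (a gene or list mean within 1 group), 5 had an array far from the others, and chance gives about 1 in 20. Of the 5, 3 were iTreg replicate 4. Ifitm1 was 8.30 there, with the other iTreg arrays at 6.73 to 6.88. The mean of the type I interferon-induced list was 8.99, with the others at 8.57 to 8.62. The mean of the plasma cell markers was 8.64, with the others at 6.48 to 6.78. In e_iTreg replicate 4 the monocyte, macrophage and dendritic cell mean was 6.45, with the others at 6.80 to 6.82. In iTreg replicate 1 the CD8 T and NK cell mean was 6.55, with the others at 6.12 to 6.17.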

How the results depend on the processing

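Under all alternatives run, the differences of Ifitm1, Ifitm2, Ifitm3 and Ifitm6 between iTreg and both other groups kept their sign, Ifitm10 against e_iTreg changed its sign under quantile normalization, median centring and without e_iTreg replicate 3, and 2 to 4 of 5 members passed as higher. In e_iTreg minus eTreg no probe set, type I or interferon-gamma gene passed in any alternative. With the mean of other cells' markers as a covariate, iTreg minus eTreg called 1214 probe sets (2349 otherwise), 6 type I genes (13 otherwise) and 2 interferon-gamma genes (8 otherwise). After leaving out the 3 arrays that were lowest in B cell markers, which keeps 2 eTreg arrays, it called 400, 3 and 1, and iTreg minus e_iTreg called 1356 probe sets (2643 otherwise) and 7 interferon-gamma genes (11 otherwise). Interferon-gamma genes called in iTreg minus eTreg were 3 over all rows of the table and 4 with the compared groups alone. With Xist and Y-linked genes as a covariate, iTreg minus e_iTreg called 972 probe sets, 9 type I genes (15 otherwise) and 6 interferon-gamma genes. The cause of these drops was not tested.

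Leaving out 1 array gave 1487 (without eTreg replicate 3) to 2437 probe sets, 7 to 14 type I genes and 3 to 8 interferon-gamma genes in iTreg minus eTreg. In iTreg minus e_iTreg it gave 1616 (without e_iTreg replicate 4) to 2852 probe sets. The main model treated the arrays as unpaired. The deviations of same-numbered arrays from their group means correlated between -0.15 and 0.24, over 0.1 in 3 of 12 pairs. Between eTreg and e_iTreg the correlations were all positive, at 0.16, 0.07, 0.08 and 0.24 for replicates 1 to 4. With the replicate block, 2225 and 2394 probe sets were called in iTreg minus eTreg and iTreg minus e_iTreg, with 14 and 15 type I genes and 7 and 13 interferon-gamma genes.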
